A study of Mus musculus with 3 samples.

Results

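TRBV13-3 is the V gene of the T-cell receptor (TCR) beta chain that older nomenclature calls Vβ8.1, and its clonotypes were followed here in double negative (DN) T cells and in the CD4 and CD8 T cells sorted beside them. A clonotype is a group of reads with the same CDR3 nucleotide sequence. The members were chosen by the V gene assigned to each clonotype, with a TRBJ gene as the second condition, and 18335 of 167967 TCR beta clonotypes met both conditions, with 2426 in the CD4, 11783 in the CD8 and 4126 in the DN library. The 3 libraries came from the spleen of 1 MRL.lpr mouse, a lupus-prone strain that carries the lpr mutation of the death receptor Fas, aged 16 weeks and with no treatment given in the labels. Splenic CD4, CD8 and DN cells, the last with neither CD4 nor CD8 on the surface, were separated by flow cytometry, and mRNA from 1000000 cells per subset gave 1 library each, prepared with Takara's SMARTer chemistry for both TCR chains. All groups share the strain, the mutation and the animal, there was no control strain among them, and with 1 library per subset every difference between subsets is a difference between libraries. The tables hold TCR sequences and no CD4 or CD8 transcript, so the sorted subsets were not checked against their markers here.

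A beta chain gene is assembled in the thymus when a D gene segment is first joined to a J segment and a V segment is then joined to the DJ product. Bases are trimmed from the ends and others are added without a template at both joints, and the CDR3 loop that spans them runs from a conserved cysteine encoded by V to a conserved phenylalanine encoded by J and meets the bound peptide. The V segment itself encodes the CDR1 and CDR2 loops, which mostly touch the MHC molecule. In the mouse locus TRBD1 lies before the TRBJ1 genes and TRBD2 between the TRBJ1 and TRBJ2 genes. Trbv13-1, Trbv13-2 and Trbv13-3, formerly Vβ8.3, Vβ8.2 and Vβ8.1, lie in this order on chromosome 6 of the RefSeq annotation of GRCm38.p6 and alternate with the Trbv12 genes.

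The sequence that TRBV13-3 brings into the CDR3 was read from the deposited clonotypes, as the base found in at least 50% of its 16254 distinct in-frame clonotypes at each position from the cysteine codon. This gave the following 14 bases for TRBV13-3, shown because they are the part marked as V in every sequence below, and those of both relatives for comparison.
TRBV13-3 start: tgtgccagcagtga
TRBV13-1 start: tgtgccagcagtga
TRBV13-2 start: tgtgccagcggtga
TRBV13-3 and TRBV13-1 were identical over all 14 bases, and TRBV13-2 differed from them at 1. The last bases were the least constant, as 95.8% of TRBV13-3 clonotypes kept the base at position 10 and 56.9% that at position 14. The assignment of a clonotype to TRBV13-3 and not to TRBV13-1 therefore rested on bases upstream of the CDR3, which the tables do not give. Each nucleotide CDR3 occurred once within a library and so had 1 V gene there. When TRBV13-3 clonotypes of one library were looked up by nucleotide CDR3 and J gene in another, between 55.6% (CD8 clonotypes found in CD4) and 87.2% (CD4 clonotypes found in DN) of those found were TRBV13-3 there too, and most of the others were TRBV13-1. Of 692 CD8 clonotypes found in CD4, 385 had TRBV13-3 and 210 had TRBV13-1 in the CD4 library, and 3 had TRBV13-2. Independent joining of the same junction to TRBV13-1 and TRBV13-3 and an assignment to the wrong one of them give the same record, and their part was not tested.

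The 3 largest TRBV13-3 clonotypes of each library show the kind of receptor that carried the most reads. Lower case marks bases that match the V start above or the common end of the J gene, read from the clonotypes in the same way. Capitals mark the bases between them, where the D segment and added bases lie. Any V or J bases beyond these common stretches are in capitals too. The counts of bases between V and J given here and below include them.
CD4 clonotype 1, TRBJ2-3: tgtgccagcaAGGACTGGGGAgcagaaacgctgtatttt
CD4 clonotype 2, TRBJ2-5: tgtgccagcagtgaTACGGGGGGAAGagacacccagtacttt
CD4 clonotype 3, TRBJ2-3: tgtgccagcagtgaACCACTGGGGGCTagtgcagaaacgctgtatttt
CD8 clonotype 1, TRBJ2-5: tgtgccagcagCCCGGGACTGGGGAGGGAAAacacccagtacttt
CD8 clonotype 2, TRBJ1-1: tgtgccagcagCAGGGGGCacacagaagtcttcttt
CD8 clonotype 3, TRBJ1-2: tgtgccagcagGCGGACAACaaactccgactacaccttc
DN clonotype 1, TRBJ2-1: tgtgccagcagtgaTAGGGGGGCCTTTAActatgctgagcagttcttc
DN clonotype 2, TRBJ2-3: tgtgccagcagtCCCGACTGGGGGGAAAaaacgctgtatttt
DN clonotype 3, TRBJ2-4: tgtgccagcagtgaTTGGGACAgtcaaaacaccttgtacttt
Over all in-frame TRBV13-3 clonotypes the bases between V and J numbered 11.5 ± 4.37 (SD, n = 2265 clonotypes) in CD4, 11.4 ± 4.09 (n = 11482) in CD8 and 12.6 ± 4.41 (n = 3881) in DN cells, so the DN mean was the highest by about 1 base within a spread of about 4. The whole V start was kept in 46.8%, 48.4% and 47.8% of them.

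TRBV13-3 held a different place in each subset. It took 7767 of 133667 TCR beta reads in CD4 (5.81%, 95% Wilson interval 5.69 to 5.94), 22549 of 150874 in CD8 (14.9%, 14.8 to 15.1) and 22826 of 194290 in DN cells (11.7%, 11.6 to 11.9). It was the ninth V gene by reads in CD4, the first in CD8 and the third in DN cells. The intervals of the 3 libraries did not overlap, and the order CD4, DN, CD8 was the same by clonotypes, at 5.41%, 9.84% and 14.5%. Such a lack of overlap was not particular to TRBV13-3. It was also seen for the reads of TRBV1, TRBV13-1 and TRBV13-2, while the CD4 and DN intervals of TRBV19 and of TRBV31 overlapped. No test was applied to these shares because TRBV13-3 was taken up for its level, and the intervals cover counting error of reads without molecular identifiers only. In DN cells the read shares of its neighbours in rank, TRBV1 at 11.9% with an interval of 11.8 to 12.1 and TRBV13-2 at 11.7% with an interval of 11.5 to 11.8, were not separated from TRBV13-3 by their counting intervals.

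The relatives of TRBV13-3 were ordered otherwise. TRBV13-1 had 13.4% of CD4, 12.6% of CD8 and 20.4% of DN reads and was thus highest in DN, while TRBV13-2 had 14.6%, 9.81% and 11.7% and was highest in CD4. Of the 3 genes, TRBV13-3 had by far the lowest share in CD4 and was the one highest in CD8. These shares rest on V gene calls that can differ between libraries for the same nucleotide CDR3 and J gene. Of 692 CD8 TRBV13-3 clonotypes found in CD4, 210 had TRBV13-1 there. Of 469 CD4 TRBV13-3 clonotypes found in CD8, 44 did. How far this moved the shares was not tested. Among the 12 other V genes with at least 1% of reads in every library, the genes whose ratios of DN to CD8 and DN to CD4 lay closest to those of TRBV13-3 were TRBV29, TRBV17 and TRBV1, at distances of 0.27, 0.50 and 0.51 on the log2 scale. The read share of TRBV13-3 in DN was 0.786 of its CD8 share and 2.02 times its CD4 share, and for TRBV29 these ratios were 0.742 and 1.69.

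**Figure D1:**
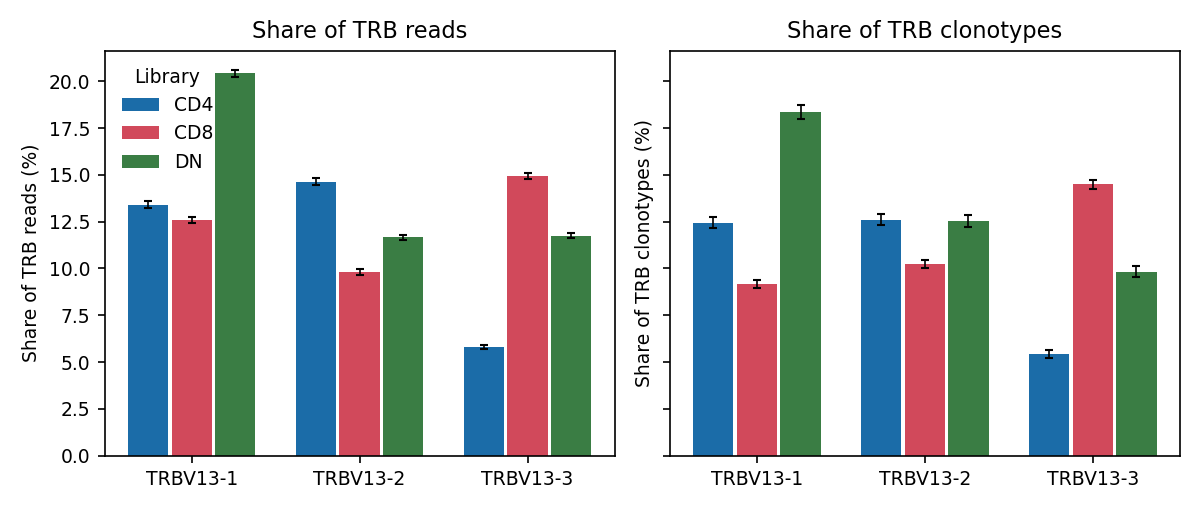
Share of TCR beta reads (left) and clonotypes (right), in percent, of TRBV13-1, TRBV13-2 and TRBV13-3 in the CD4, CD8 and DN libraries, with 95% Wilson intervals of counting error as error bars. TRBV13-3 has 5.81% of reads in CD4, 11.7% in DN and 14.9% in CD8, an order that neither relative has.

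Mean clone sizes of TRBV13-3 had the same order of libraries as those of the other V genes. The mean was 3.20 reads per TRBV13-3 clonotype in CD4, 1.91 in CD8 and 5.53 in DN cells, against 2.97, 1.85 and 4.53 for all other V genes, and the median was 1 read in each. Clonotypes with at least 100 reads numbered 4 in CD4, 7 in CD8 and 30 in DN cells and held 12.8%, 3.89% and 33.2% of the TRBV13-3 reads. Among the other V genes such clonotypes held 13.2%, 6.90% and 24.7% of the reads. 50% of the reads lay in the largest 168 CD4, 2230 CD8 and 98 DN clonotypes. The DN members were therefore the most uneven in size, and the CD8 members, with the most clonotypes, the least. The 10 largest members held 18.2% of TRBV13-3 reads in CD4 (17.4 to 19.1), 4.98% in CD8 (4.70 to 5.27) and 4565 of 22826 in DN cells (19.5% to 20.5%). For the other V genes together, with far more clonotypes, the 10 largest held 4.28%, 4.89% and 5.91%, so CD4 and not CD8 was lowest there.

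**Figure D2:**
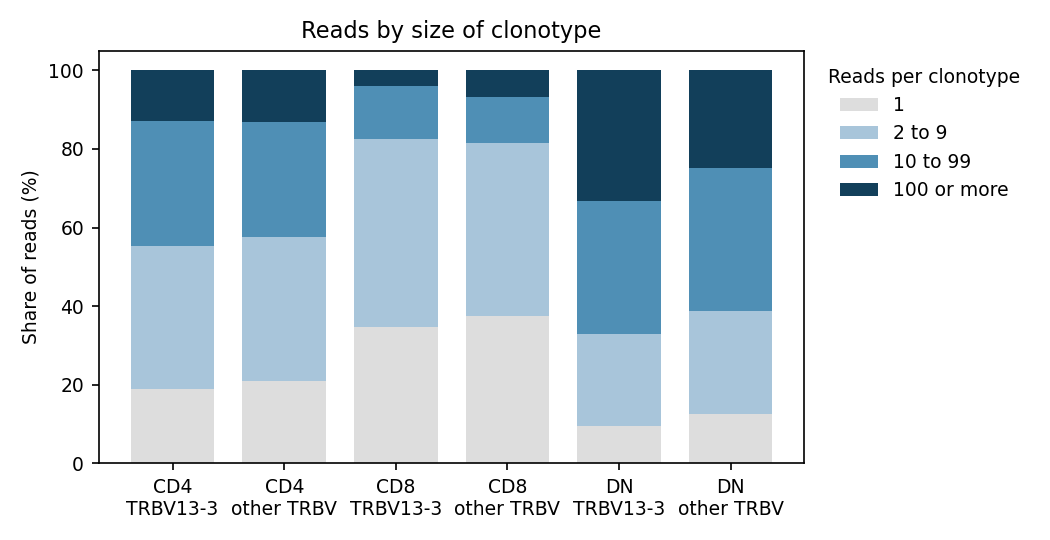
Share of reads, in percent, held by clonotypes of 1, 2 to 9, 10 to 99 and 100 or more reads, for TRBV13-3 and for all other TRBV genes in each library. Clonotypes of 100 or more reads hold 33.2% of TRBV13-3 reads in DN cells, 12.8% in CD4 and 3.89% in CD8.

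Clonotypes seen as a single read were compared between TRBV13-3 and the other V genes of the same library with Fisher's exact test, two-sided here and below and adjusted over all V genes, features and libraries of a family. Over all V genes 36.7% of such tests passed at an adjusted p below 0.05. Single reads made up 60.3% of TRBV13-3 clonotypes in CD4 against 62.2% of the others (Fisher's exact test, adjusted p = 0.135), 66.5% against 69.4% in CD8 (adjusted p = 1.56e-08, exact) and 52.7% against 56.9% in DN cells (adjusted p = 2.46e-06, exact). TRBV13-3 thus had fewer single-read clonotypes in CD8 and DN cells, with ratios of 0.958 and 0.926. In all such tests the number of clonotypes sets what can be called, and the CD8 library had 11783 members.

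The largest members differed between libraries, and the largest in DN cells were also seen elsewhere. CD4 clonotype 1 had 575 CD4, 8 CD8 and 3 DN reads, and it had rank 3 among all TCR beta clonotypes of its library. With 7.40% of the TRBV13-3 reads of CD4 cells, it also carried 40.2% of the reads that joined TRBJ2-3 there. CD4 clonotype 2 had 146 reads in CD4 and 0 in both others, where 3 counts of the total would be a share of 0.00199% in CD8 and 0.00154% in DN cells. CD4 clonotype 3 had 143, 4 and 1 reads in CD4, CD8 and DN cells. CD4 clonotype 4, with TRBJ1-4, had 127, 11 and 13 reads, and CD4 clonotype 5, with TRBJ2-7, was out of frame and had 96, 3 and 0 reads. The 5 largest CD4 members thus had at most 13 reads in any other library.

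CD8 clonotype 1 had 4, 150 and 13 reads in CD4, CD8 and DN cells, CD8 clonotype 2 0, 142 and 2, and CD8 clonotype 3 5, 140 and 0. CD8 clonotype 4, with TRBJ1-3 and no D gene assigned, had 1, 121 and 0 reads. These were small outside CD8. CD8 clonotype 5, with TRBJ2-1, had 8, 121 and 114 reads. With 0.0802% of TCR beta reads in CD8 and 0.0587% in DN cells, it was smaller by share in DN cells, but not rare there. Its rank among TRBV13-3 clonotypes was 5 in CD8 and 29 in DN cells.

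DN clonotype 1 had 24 CD4, 100 CD8 and 836 DN reads. DN clonotype 2 had 15, 65 and 583, and DN clonotype 3 27, 91 and 541. DN clonotype 4, with TRBJ1-4, had 15, 76 and 505 reads and DN clonotype 5, with TRBJ2-4, 7, 64 and 451. All 5 were thus found in every library, in the same order of libraries, and were among the 14 largest TRBV13-3 clonotypes of the CD8 library.

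Extending this to the 20 largest in-frame TRBV13-3 clonotypes of DN cells, all 20 were found in CD8 and 19 of 20 in CD4 cells. Their share of reads in CD8 was 10.8% to 24.3% of that in DN cells, with a median of 16.5%, and in CD4 it was 0% to 16.6% with a median of 4.45%. The 20 largest DN clonotypes of all other V genes had medians of 19.4% in CD8 and 5.40% in CD4 cells. Both medians of TRBV13-3 thus lay below those of the other V genes. The quartile ranges overlapped, at 14.2% to 19.4% against 17.1% to 21.1% in CD8 and 3.28% to 6.86% against 4.20% to 6.89% in CD4. The 20 clonotypes of the other V genes were larger, with 14514 DN reads against 6340, and no test was made. Relative to the median, the TRBV13-3 ratios varied more from clonotype to clonotype in CD4 than in CD8 cells. Read the other way, 7 of the 20 largest CD8 clonotypes of TRBV13-3 had a higher share in DN than in CD8 cells, and the remaining 13 had at most 114 reads in DN, of which 12 had at most 13. Of the 20 largest CD4 clonotypes, 10 were found in CD8 and 9 in DN cells, at pooled shares of 1.67% and 1.22% of that in CD4. Presence of the same cell lineage in both sorts and carry-over of cells or molecules between them cannot be told apart with 1 library each.

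**Figure D3:**
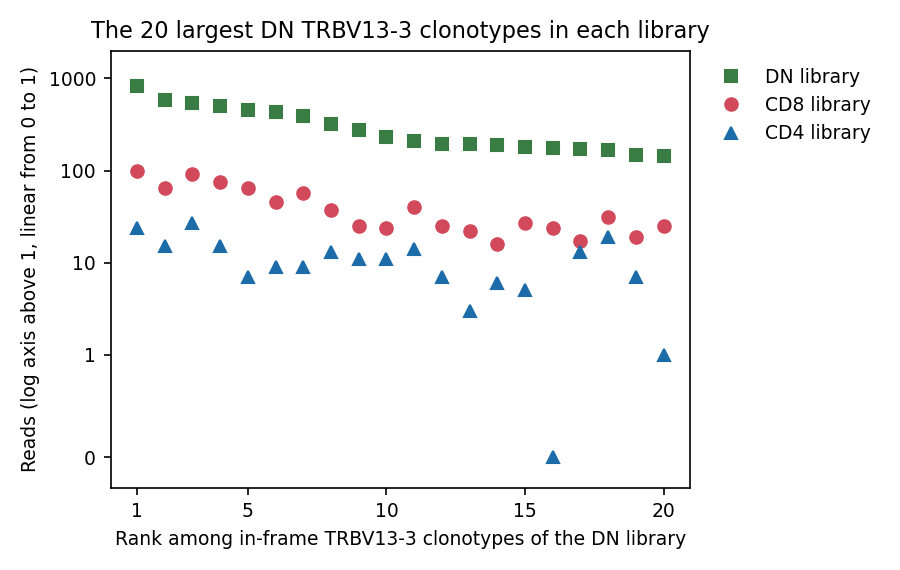
Reads of the 20 largest in-frame TRBV13-3 clonotypes of the DN library (rank on the x axis) in the DN, CD8 and CD4 libraries, on a logarithmic y axis that is linear from 0 to 1. All 20 were found in CD8, at 10.8% to 24.3% of their DN share, and 19 in CD4 cells.

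J gene use was compared by counting clonotypes, so that a large clone has no more weight than a small one. TRBJ2-7 was the most used J gene in every library and TRBJ1-5 the least. The TRBJ2 genes joined 63.4% of CD4, 69.3% of CD8 and 70.1% of DN clonotypes of TRBV13-3, close to 64.0%, 69.6% and 70.8% for the other V genes. By reads the TRBJ2 share of TRBV13-3 was 68.2%, 70.3% and 77.7%. Against the other V genes of the same library, 2 of 12 J genes passed in CD4, 6 of 12 in CD8 and 3 of 12 in DN cells (Fisher's exact test, adjusted p below 0.05). Over all V genes 30.4% of these tests passed in CD4, 40.9% in CD8 and 29.4% in DN cells. Read against these shares, the number for TRBV13-3 was lower in CD4 and DN cells and higher in CD8 cells, where its clonotypes were most numerous. With at least 2 reads per clonotype, 1 passed in CD4 (TRBJ1-5), 2 in CD8 (TRBJ1-5 and TRBJ2-4) and 2 in DN cells (TRBJ1-4 and TRBJ2-7), so that TRBJ1-1, TRBJ1-3, TRBJ2-2 and TRBJ2-5 passed nowhere.

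Among the TRBJ1 genes, TRBJ1-5 was the one with the lowest ratio in CD4 and CD8 cells. It joined 34 of 2426 clonotypes in CD4 (1.40%, against 3.03% of the others, ratio 0.462, 95% interval 0.330 to 0.648, Fisher's exact test, adjusted p = 6.09e-06), 224 of 11783 in CD8 (1.90% against 2.64%, ratio 0.720, adjusted p = 1.27e-05) and 90 of 4126 in DN cells (2.18% against 2.43%, ratio 0.899, adjusted p = 0.524). It was lower in CD4 and CD8 cells, and in DN cells the interval of the ratio, 0.725 to 1.11, included 1. TRBJ1-3 had ratios of 1.22, 1.17 and 1.196 and passed in CD4 (7.13%, Fisher's exact test, adjusted p = 0.0365) and CD8 (5.38%, adjusted p = 0.00116) but not in DN cells (4.48%, adjusted p = 0.060). TRBJ1-1 was at 9.85%, 7.87% and 7.61% and was lower than in other V genes in CD8 (ratio 0.911, Fisher's exact test, adjusted p = 0.0196) and DN cells (ratio 0.865, adjusted p = 0.0334). TRBJ1-2 (7.05%, 5.19% and 4.17% in CD4, CD8 and DN), TRBJ1-4 (7.46%, 6.80% and 7.37%) and TRBJ1-6 (3.67%, 3.54% and 4.12%) did not pass in any library.

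Among the TRBJ2 genes, TRBJ2-4 was used more by TRBV13-3 in CD8 (9.06% against 7.70%, ratio 1.18, Fisher's exact test, adjusted p = 7.74e-06) and DN cells (7.68% against 6.67%, ratio 1.15, adjusted p = 0.0474), with 8.62% and a ratio of 1.08 in CD4. The call in DN cells was lost with at least 2 reads (ratio 1.23, Fisher's exact test, adjusted p = 0.060), with 1-mismatch clonotypes merged (ratio 1.14, adjusted p = 0.0817), with clonotypes of 1 library only (ratio 1.07, adjusted p = 0.470) and against the relatives, and was kept in frame (adjusted p = 0.0365). TRBJ2-5 was used less in CD8 (11.6% against 13.7%, ratio 0.850, Fisher's exact test, adjusted p = 2.00e-08) and stood at 11.0% in CD4 and 11.9% in DN cells. TRBJ2-7 was used less in DN cells (20.9% against 23.6%, ratio 0.884, Fisher's exact test, adjusted p = 5.28e-04) and stood at 16.2% in CD4 and 21.2% in CD8. TRBJ2-2 was used more in CD8 (5.31%, ratio 1.12, Fisher's exact test, adjusted p = 0.0301), with 4.70% in CD4 and 4.73% in DN cells. TRBJ2-1 (13.3%, 13.5% and 16.1%) and TRBJ2-3 (9.69%, 8.61% and 8.75%) did not pass. The J genes past the threshold thus differed between libraries, 0 of 12 passed in all 3, and 7 of 12 lay on the same side of a ratio of 1 in all 3.

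With TRBV13-1 and TRBV13-2 as the comparison in place of all other V genes, TRBJ1-3 in CD4 (ratio 1.18, Fisher's exact test, adjusted p = 0.131), TRBJ1-1 in CD8 (ratio 0.940, adjusted p = 0.265) and DN cells (ratio 0.883, adjusted p = 0.111), TRBJ2-5 in CD8 (ratio 0.959, adjusted p = 0.365) and TRBJ2-4 in DN cells (ratio 1.04, adjusted p = 0.692) no longer passed. In their place TRBJ2-7 in CD4 (ratio 0.874, Fisher's exact test, adjusted p = 0.0249) and CD8 (ratio 0.915, adjusted p = 7.90e-04), TRBJ1-2 in CD8 (ratio 1.14, adjusted p = 0.0470) and TRBJ1-3 (ratio 1.24, adjusted p = 0.0440), TRBJ1-4 (ratio 1.24, adjusted p = 0.00651) and TRBJ2-5 in DN cells (ratio 1.15, adjusted p = 0.0201) passed, which gave 2, 6 and 4 J genes in CD4, CD8 and DN cells. The lower use of TRBJ1-5 in CD4 and CD8 cells passed under every alternative tried. The J use most like that of TRBV13-3, by the summed absolute differences of the J shares divided by 2 and averaged over the libraries, was that of TRBV31 (4.97%), TRBV1 (5.98%) and TRBV13-2 (6.22%) among 12 V genes, with TRBV13-1 next at 6.49%.

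**Figure D4:**
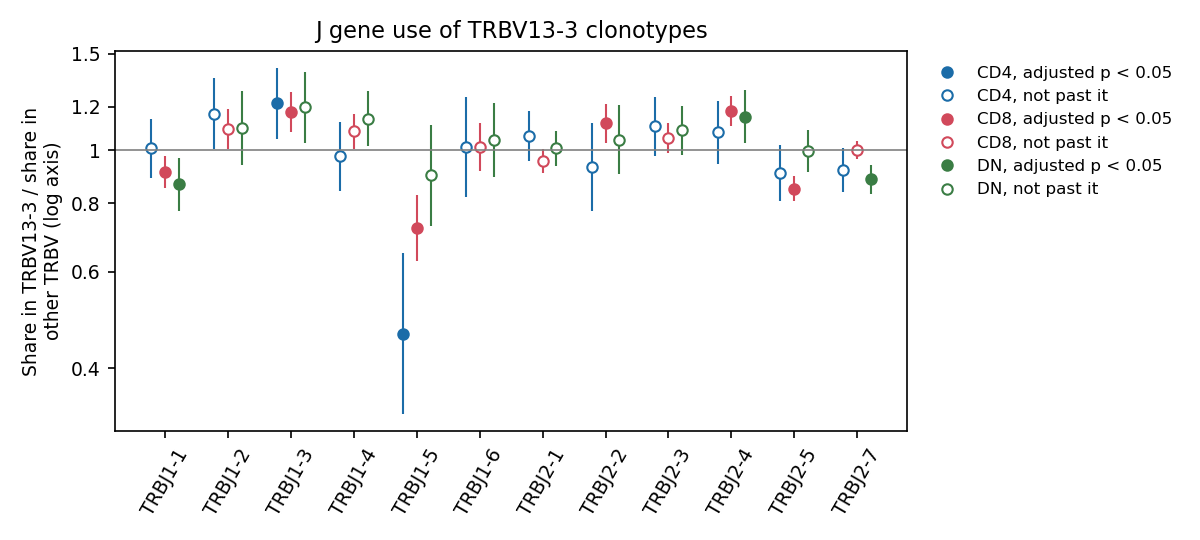
Share of each J gene among TRBV13-3 clonotypes divided by its share among all other TRBV clonotypes of the same library, on a logarithmic y axis, with 95% intervals as vertical lines and filled points for an adjusted p below 0.05. TRBJ1-5 lies lowest, at 0.462 in CD4 and 0.720 in CD8, and most other ratios lie between 0.8 and 1.2.

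Between libraries, the TRBV13-3 members of the CD4 library had more TRBJ1-1, TRBJ1-2 and TRBJ1-3 and less TRBJ2-7 than those of both others. Among the other V genes the CD4 library was likewise highest in these TRBJ1 genes and lowest in TRBJ2-7, with TRBJ1-1 at 9.78%, 8.63% and 8.79% in the CD4, CD8 and DN libraries, TRBJ1-2 at 6.05%, 4.74% and 3.79%, TRBJ1-3 at 5.86%, 4.58% and 3.75% and TRBJ2-7 at 17.5%, 21.2% and 23.6%, so this was a difference of the libraries at large. The tests below take clonotypes as units and hold no spread between animals or sorts, so they compare 3 libraries and not the subsets. TRBJ1-2 joined 7.05% of CD4, 5.19% of CD8 and 4.17% of DN clonotypes. TRBJ2-7 joined 16.2%, 21.2% and 20.9%. In the DN against the CD4 library 5 of 12 J genes passed (Fisher's exact test, adjusted p below 0.05; 28.5% of such tests passed over all V genes), with lower TRBJ1-1 (ratio 0.772), TRBJ1-2 (0.591) and TRBJ1-3 (0.629) and higher TRBJ2-1 (1.21) and TRBJ2-7 (1.29). In the CD8 against the CD4 library 4 passed (23.3% over all V genes), with lower TRBJ1-1 (0.799), TRBJ1-2 (0.737) and TRBJ1-3 (0.755) and higher TRBJ2-7 (1.31). In the DN against the CD8 library 3 passed (13.6% over all V genes), with lower TRBJ1-2 (0.803) and TRBJ2-4 (0.848) and higher TRBJ2-1 (1.19). Among the other V genes TRBJ2-4 was likewise lower in the DN (6.67%) than in the CD8 library (7.70%). Their TRBJ2-1 share was also highest in the DN library, at 12.6%, 14.2% and 16.0% in the CD4, CD8 and DN libraries. Each pair of these comparisons shares a library.

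D gene calls rest on the few bases left between V and J, and some clonotypes had no D call. For TRBJ1, TRBD1 was called in 60.2% of CD4, 61.8% of CD8 and 64.7% of DN clonotypes of TRBV13-3, and TRBD2, which lies after the TRBJ1 genes on the chromosome, in 3.72%, 4.65% and 6.48%. For TRBJ2 both D genes were used. TRBD2 made up 51.0% of called D genes in CD4 (48.2 to 53.8), 53.1% in CD8 (51.9 to 54.3) and 66.0% in DN cells (64.1 to 67.9), so that the interval of DN cells lay above those of both others. Other V genes had 55.6%, 58.0% and 66.4% and were in the same order.

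Against other V genes, the TRBD2 share with TRBJ2 was lower for TRBV13-3 in CD4 (ratio 0.918, 95% interval 0.868 to 0.970, Fisher's exact test, adjusted p = 0.0045) and CD8 (ratio 0.915, 0.893 to 0.938, adjusted p = 1.58e-12), and in DN cells the ratio was 0.994 (0.965 to 1.02, adjusted p = 0.812). Clonotypes with TRBJ2 and no D call were fewer in all libraries, at 19.0%, 20.9% and 15.7% against 22.5%, 22.2% and 19.1% (Fisher's exact test, adjusted p = 0.00384, 0.0220 and 2.22e-05). With TRBJ1 this held in DN cells (28.8% against 33.7%, Fisher's exact test, adjusted p = 0.00179), and the shares were 36.1% against 33.0% in CD4 and 33.5% against 35.2% in CD8. In all 6 of 9 D tests passed for TRBV13-3, and 51.7% passed over all V genes. Against TRBV13-1 and TRBV13-2 alone the TRBD2 share was lower in all 3 libraries, in DN cells with a ratio of 0.925 (Fisher's exact test, adjusted p = 2.40e-06). In the same comparison the share with TRBJ2 and no D call did not pass in CD4 (ratio 0.931, Fisher's exact test, adjusted p = 0.334) and CD8 (ratio 0.995, adjusted p = 0.948) and passed in DN cells (ratio 0.889, adjusted p = 0.0275). With at least 2 reads it likewise passed in DN cells alone (ratio 0.828, Fisher's exact test, adjusted p = 0.00731), and the share with TRBJ1 and no D call in DN cells did not pass (ratio 0.893, adjusted p = 0.168).

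CDR3 length, counted from the cysteine to the phenylalanine in in-frame clonotypes, peaked at 14 residues in every library. The mean was 13.8 ± 1.38 residues (SD, n = 2265 clonotypes) in CD4, 13.9 ± 1.42 (n = 11482) in CD8 and 14.2 ± 1.40 (n = 3881) in DN cells. CDR3s of 13 residues or fewer made up 39.6% (37.6 to 41.6) in CD4, 37.4% (36.6 to 38.3) in CD8 and 28.2% (26.8 to 29.7) in DN cells, and those of 16 or more 9.01%, 11.5% and 17.0%. The DN members were thus the longest, as were DN clonotypes of other V genes, which had 28.6% short CDR3s against 36.2% in CD4 and 35.8% in CD8. Counted by reads, short CDR3s made up 43.2%, 40.7% and 27.6% of in-frame TRBV13-3 reads.

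Against other V genes of the same library, short CDR3s were more frequent for TRBV13-3 in CD4 (ratio 1.09, 95% interval 1.04 to 1.15, Fisher's exact test, adjusted p = 0.00197) and CD8 (ratio 1.05, 1.02 to 1.07, adjusted p = 9.51e-04) and not detectably different in DN cells (ratio 0.988, 0.937 to 1.04, adjusted p = 0.699). Of all such length tests over the V genes 75% passed. Short CDR3s made up 35.6% and 32.4% for TRBV13-1 and TRBV13-2 in CD4, both below TRBV13-3, and 39.3% and 31.7% in CD8 and 32.9% and 23.3% in DN cells, on both sides of it. TRBV13-2 therefore had the longest CDR3s of the 3 genes in each library.

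**Figure D5:**
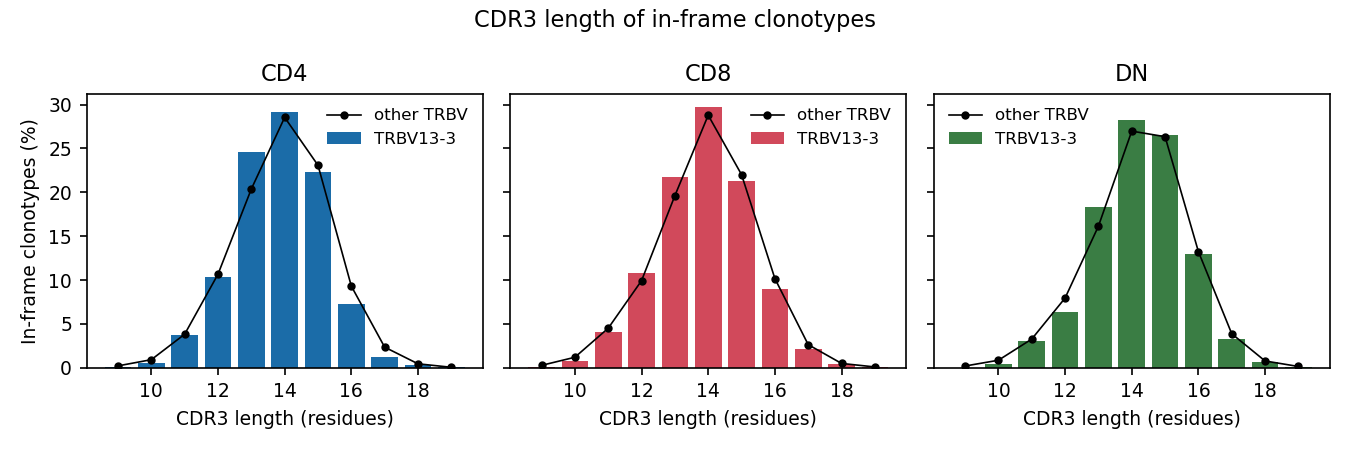
CDR3 length in residues of in-frame TRBV13-3 clonotypes (bars) and of all other TRBV clonotypes (black points), in percent of in-frame clonotypes, in the CD4, CD8 and DN libraries. CDR3s of 13 residues or fewer make up 39.6% and 37.4% of TRBV13-3 clonotypes in CD4 and CD8 and 28.2% in DN cells.

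The residues that follow the cysteine are set first by the V end. Position 4, the last codon that TRBV13-3 mostly encodes, was serine in 79.6% of CD4, 82.4% of CD8 and 82.0% of DN in-frame members, with arginine next at 11.9%, 9.91% and 10.6%. Position 5, whose codon starts with the last 2 bases of the V start, was aspartate in 39.4%, 42.0% and 42.6%, glycine in 13.6%, 15.9% and 13.7%, and glutamate in 12.7%, 10.9% and 11.1%. Aspartate there was 2.38 times as frequent as in other V genes in CD4, 2.78 times in CD8 and 2.04 times in DN cells (Fisher's exact test, adjusted p = 7.65e-137, 1.58e-299 and 3.09e-179). The members were chosen by V gene, and V supplies at least the first 2 bases of this codon. This comparison with other V genes therefore restates the choice of members at least in part and is no separate result. Against TRBV13-1 and TRBV13-2, which share those 2 bases, the direction was the opposite, with ratios of 0.840, 0.761 and 0.809 (Fisher's exact test, adjusted p = 1.82e-10, 1.55e-100 and 3.25e-27). TRBV13-3 thus had more of this aspartate than V genes at large and less than both relatives together.

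Further in, TRBV13-3 had fewer acidic residues at positions 6 to 8 than other V genes in every library, at 26.4%, 29.2% and 32.9% against 33.1%, 37.1% and 41.5% (Fisher's exact test, adjusted p = 7.33e-11, 2.30e-60 and 5.08e-25). Against its relatives the ratio was 1.03 in CD4 (Fisher's exact test, adjusted p = 0.595), 0.935 in CD8 (adjusted p = 7.68e-04) and 0.909 in DN cells (adjusted p = 3.64e-04). Basic residues at positions 5 to 8 were more frequent in CD4 (36.6% against 32.3%, Fisher's exact test, adjusted p = 5.37e-05) and less frequent in CD8 (28.7% against 30.7%, adjusted p = 3.62e-05) and DN cells (30.8% against 34.5%, adjusted p = 1.08e-05). Against the relatives the ratio in CD4 was 1.26 (Fisher's exact test, adjusted p = 1.60e-11), and those in CD8 and DN cells turned to 1.09 and 1.07. Glycine at position 6 or 7 was more frequent in CD8 (55.8% against 52.2%, Fisher's exact test, adjusted p = 4.78e-12) and DN cells (49.9% against 44.8%, adjusted p = 3.94e-09), with 52.9% against 54.5% in CD4. Of the 15 residue tests 12 passed for TRBV13-3, and 69% passed over all V genes. The aspartate tests are among the 12, and the tests of basic residues take in position 5, which V sets at least in part.

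A hydrophobic residue at position 6 or 7 was present in 25.6% (23.9 to 27.4) of in-frame TRBV13-3 clonotypes in CD4, 26.9% (26.0 to 27.7) in CD8 and 37.7% (36.2 to 39.2) in DN cells. Against other V genes the share was lower in CD8 (30.4%, ratio 0.885, Fisher's exact test, adjusted p = 7.44e-14), with 25.01% in CD4 and 37.7% in DN cells for the others. Tryptophan, one of these residues, stood at position 6 in 4.46%, 4.69% and 9.74% and at position 7 in 4.64%, 4.81% and 11.7% of members in CD4, CD8 and DN cells. The pair DW, one reading of the TRBD2 segment and present in CD4 clonotype 1 and DN clonotype 2 above, both with a TRBD2 call, and in DN clonotype 3, with no D call, lay within positions 5 to 9 in 6.80% (5.83 to 7.91) of CD4, 7.69% (7.22 to 8.19) of CD8 and 17.0% (15.9 to 18.2) of DN members. This pair was singled out after its values were seen. Of the DN members with it, 88.6% had a TRBD2 call. Other V genes had 5.98%, 8.31% and 15.4%, so the difference between libraries was not limited to TRBV13-3. Among members found in 1 library only, DW was at 4.26%, 7.10% and 17.0%. The other TRBD2 reading GLG was at 2.83%, 3.08% and 3.30%. The TRBD1 readings DR and GQG were at 14.0%, 12.2% and 11.8% and at 3.22%, 3.65% and 2.40%. Other V genes had DR at 8.12%, 8.10% and 9.48%. At position 5 the aspartate of DW or DR can begin with the last bases of the V start, as in DN clonotype 3. Such a pair is then not read from the D segment alone. Of members with DR, 77.0%, 74.6% and 71.8% had a TRBD1 call, against 98.6%, 98.6% and 97.8% of those with GQG.

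Nonproductive clonotypes are out of frame or hold a stop codon and can come from the second allele of a cell. TRBV13-3 had 161 of them in CD4 (6.64%), 301 in CD8 (2.55%) and 245 in DN cells (5.94%), and 670 of these 707 were out of frame. The shares were lower than for other V genes in each library, at 7.89%, 5.29% and 9.29%, with ratios of 0.841, 0.483 and 0.639 (Fisher's exact test, adjusted p = 0.0296, 3.25e-42 and 1.39e-13). Over all V genes 83.3% of such tests passed, and with at least 2 reads per clonotype the ratio in CD4 was 0.709 (Fisher's exact test, adjusted p = 0.0541). Nonproductive members had few reads, 2.01, 1.10 and 1.53 on average against 3.29, 1.93 and 5.78 for productive members, and the largest was CD4 clonotype 5 with 96 reads.

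Sharing between libraries was counted where V gene, J gene and nucleotide CDR3 were identical. The 18335 members were 16937 distinct clonotypes, of which 211 (1.25%) were in all 3 libraries, 651 in CD8 and DN only, 174 in CD4 and CD8 only and 151 in CD4 and DN only. Few in number, the 211 held 53.0% of TRBV13-3 reads in DN, 21.7% in CD4 and 10.6% in CD8 cells, and their mean was 57.4 reads in DN, 8.005 in CD4 and 11.3 in CD8. Large clonotypes are the most readily detected in all 3 libraries, so these shares and means rest in part on that. Clonotypes of DN cells only were 75.4% of the DN members and held 25.8% of their reads. For other V genes the clonotypes in all 3 libraries held 45.1%, 14.9% and 16.0% of reads in DN, CD4 and CD8 cells.

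As a share of its own clonotypes, TRBV13-3 was shared more often than other V genes from the side of CD4 and less often from the side of CD8. Of the CD4 members 15.9% were found in CD8 and 14.9% in DN cells, against 8.29% and 8.004% of the others (ratios 1.91 and 1.86, Fisher's exact test, adjusted p = 1.12e-30 and 8.14e-27). Of the CD8 members 3.27% were found in CD4 and 7.32% in DN cells, against 5.06% and 9.95% (ratios 0.646 and 0.735, Fisher's exact test, adjusted p = 6.85e-18 and 1.10e-19). Of the DN members 20.9% were found in CD8 and 8.77% in CD4 cells, against 18.3% (ratio 1.14, Fisher's exact test, adjusted p = 1.38e-04) and 8.97% (ratio 0.978, adjusted p = 0.740). In all 5 of 6 tests passed, and 61.7% passed over all V genes. With at least 2 reads per clonotype the higher share of DN members found in CD8 did not pass (ratio 1.10, Fisher's exact test, adjusted p = 0.0719). These shares depend on how many TRBV13-3 clonotypes the other library holds, 2426 in CD4 and 11783 in CD8. Per 1000000 possible pairs of clonotypes with the same V gene, TRBV13-3 shared 13.5 between CD4 and CD8, 36.2 between CD4 and DN and 17.7 between CD8 and DN cells, against 14.8, 23.7 and 28.0 for the other V genes together. The others together are weighted towards V genes with many clonotypes, and the median V gene had 24.3, 45.3 and 49.99. On this scale TRBV13-3 ranked 17 of 20 V genes between CD4 and CD8, 11 of 19 between CD4 and DN and 19 of 19, the lowest, between CD8 and DN cells, so all 3 of its values were below the median V gene. The number of possible pairs is the product of both clonotype counts, and TRBV13-3 had the most clonotypes of any V gene in CD8. A high count can by itself give a low rank, and how far it did so was not tested. Sharing required the same V gene in both libraries. Of 1151 CD8 members found in DN by nucleotide CDR3 and J gene, 289 had another V gene there, 250 of them TRBV13-1. These were not counted as shared, and how far this lowers the rank of TRBV13-3 was not tested.

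Shared members differed from unshared ones in size and, less, in sequence. A larger clonotype is more readily detected in another library, so the difference in size follows in part from how sharing was counted. In DN cells the median was 23 reads for in-frame members found in all 3 libraries, 3 for those in 2 and 1 for those in 1, and single reads made up 5.74%, 31.0% and 59.9%. DN members found only there had 12.9 ± 4.55 bases between V and J (SD, n = 2887 clonotypes), those in 2 libraries 11.7 ± 3.86 (n = 785) and those in all 3 11.5 ± 3.65 (n = 209). No such order was seen in the other libraries, where members in 1, 2 and 3 libraries had 11.6, 11.01 and 11.5 bases in CD4 and 11.5, 11.3 and 11.5 in CD8. Aspartate at position 5 was in 50.7% of the 209 and in 37.3%, 41.6% and 41.5% of members found only in CD4, CD8 or DN cells.

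Different nucleotide sequences that encode the same amino acid CDR3 with the same J gene were rare. Over the 3 libraries 1197 of 14712 amino acid CDR3s of TRBV13-3 (8.14%) had 2 or more nucleotide sequences, and 24 had 5 or more. Within a library 3.63% of amino acid CDR3s had 2 or more in CD4, 6.84% in CD8 and 3.78% in DN cells, against 5.38%, 6.80% and 5.25% for other V genes. TRBV13-3 was thus lower in CD4 (ratio 0.675, Fisher's exact test, adjusted p = 7.99e-04) and DN cells (ratio 0.721, adjusted p = 2.62e-04), with a ratio of 1.00 in CD8, and 50% of such tests passed over all V genes. With at least 2 reads per clonotype the ratio in CD4 was 0.714 (Fisher's exact test, adjusted p = 0.265). These shares can depend on how many clonotypes of a V gene a library holds, for TRBV13-3 2426 in CD4, 11783 in CD8 and 4126 in DN cells. The tests did not adjust for this number.

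The 3 amino acid CDR3s with the most nucleotide sequences all had the residues DRG at positions 5 to 7. With TRBJ2-4 and 13 residues, one had 9 nucleotide sequences, 8 in CD8 and 1 in CD4, with 14 and 4 reads and none in DN cells. With TRBJ1-2 and 13 residues, another had 7, with 10 CD4, 23 CD8 and 60 DN reads. The third, with TRBJ2-7 and 12 residues, also had 7, with 7, 38 and 149 reads. Its 4 largest sequences are shown because they encode 1 amino acid CDR3, and capitals again mark the bases between V and J.
DRG with TRBJ2-7, sequence 1: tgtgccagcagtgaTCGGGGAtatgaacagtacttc
DRG with TRBJ2-7, sequence 2: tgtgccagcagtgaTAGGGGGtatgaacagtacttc
DRG with TRBJ2-7, sequence 3: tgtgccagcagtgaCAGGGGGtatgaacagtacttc
DRG with TRBJ2-7, sequence 4: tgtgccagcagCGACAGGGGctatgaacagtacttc
Sequence 1 had 7, 21 and 125 reads in CD4, CD8 and DN cells and sequence 2 had 0, 2 and 24, so both were largest in DN cells. Sequence 3 had 11 reads and sequence 4 had 1, all in CD8. By amino acid sequence, 257 of 14712 in-frame CDR3s (1.75%) were in all 3 libraries, against 209 of 16254 (1.29%) by nucleotide sequence.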

How the data were processed

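The authors sorted the cells, made the libraries, aligned the reads and assembled clonotypes with MiXCR. Its version, settings and reference are not given in the sources used here. The deposited count is the number of reads of a clonotype, not normalized, and the deposited fraction is this count divided by the total of the table, as checked. Here, clonotypes with TRBV and TRBJ genes were kept (44807 for CD4, 81212 for CD8, 41948 for DN). Reads carry no molecular identifiers, so 95% Wilson intervals cover counting error only. V genes and J genes with at least 100 clonotypes in a library were tested with two-sided Fisher's exact tests on clonotypes, Benjamini-Hochberg adjusted within a family over all V genes, and p-values below 1e-300 were set to 1e-300. The tests take clonotypes of a library as separate. Alternatives were a minimum of 2 reads, merging of 1-mismatch clonotypes with 10 times fewer reads, in-frame clonotypes, clonotypes of 1 library, other length limits and the TRBV13 relatives as comparison. Named clonotypes were the 5 largest per library and the 3 amino acid CDR3s with the most nucleotide sequences, and named V genes were the relatives and the 3 most alike. The members and lists were chosen with earlier results of these data known. Scripts ran in Python 3.11.15 (pandas 2.3.3, SciPy 1.17.1, NumPy 2.4.6, matplotlib 3.10.9).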

Additional observations from a re-analysis of the deposited data

How the results depend on the processing

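Of 241 values under alternatives, 189 were counted as unchanged. For a ratio that passed, this means that it passed again in the same direction. For a ratio that did not pass, it means that it still did not pass, whatever its direction. A number of J genes was counted as unchanged when it was similar, even where the genes were others, and a share of reads when it stayed within its interval. With at least 2 reads per clonotype, 1 J gene passed in CD4 and 2 in CD8 in place of 2 and 6, and 3 in place of 5 between DN and CD4. Under the same minimum the ratios that no longer passed were those for no D call with TRBJ2 in CD4 (0.896) and CD8 (0.918) and with TRBJ1 in DN (0.893), for nonproductive clonotypes in CD4 (0.709), for DN members found in CD8 (1.10) and for convergent CDR3s in CD4 (0.714). Merging of 1-mismatch clonotypes left 1 J gene in CD4. With clonotypes of 1 library only, the ratio for no D call with TRBJ1 passed in CD4 (1.14) and no longer passed in DN (0.902).

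Against TRBV13-1 and TRBV13-2 the ratio for aspartate at position 5 reversed in CD4 (0.840), CD8 (0.761) and DN (0.809), that for acidic residues in CD4 (1.03), and that for basic residues in CD8 (1.09) and DN (1.07). In the same comparison the ratio for no D call with TRBJ1 passed in CD4 (1.14) and CD8 (0.900), with TRBJ2 it no longer passed in CD4 (0.931) and CD8 (0.995), and the TRBD2 share in DN (0.925) and hydrophobic residues in DN (0.949) passed. Between these 2 comparison groups the V genes compared with differ, and the cause of the other changes was not tested.

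The share of TRBV13-3 in CD4, CD8 and DN was 5.41%, 14.5% and 9.84% of clonotypes, 5.95%, 15.5% and 12.1% of reads with at least 2 reads per clonotype, and 4.80%, 14.3% and 9.62% of reads without its 10 largest clonotypes. In frame it was 15.3% in CD8 and 12.1% in DN. The order CD4, DN, CD8 was the same in each of these. No paired analysis was possible because each subset had 1 library. Depth limits clonotypes near 1 read, which made up 52.7% to 66.5% of the members.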
